A study of Homo sapiens with 6 samples.

Results

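The respiratory complexes II to V are built from nuclear genes for succinate dehydrogenase (complex II), the cytochrome bc1 complex (complex III), cytochrome c, cytochrome c oxidase (complex IV) and ATP synthase (complex V). Their rows were chosen by gene symbol, with earlier results of these data known. The symbols were the SDH subunits and SDHAF factors, those that begin with UQCR, COX or COA and a number, or ATP5F, ATP5M or ATP5P, and CYC1, CYCS, SCO1, SCO2 and SURF1. This gave 76 of the 48114 rows of the table, 8 for complex II, 11 for complex III, 1 for cytochrome c, 38 for complex IV and 18 for complex V. The cells were TC-71, a human Ewing sarcoma line labelled wild type. They were grown in Iscove's medium with fetal bovine serum. BEZ235, a drug that blocks PI3K and mTOR, kinases of the growth factor and nutrient pathways, or the solvent alone (dimethyl sulfoxide, DMSO) was present for 16 h. Each group had 3 libraries, called biological replicates in the labels, and all came from this 1 line. The labels state no dose of BEZ235.

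In the respiratory chain, complex II takes electrons from succinate and passes them to ubiquinone, complex III passes them on to cytochrome c, and complex IV hands them to oxygen. Complexes III and IV pump protons, and complex V lets the protons flow back through its membrane rotor and makes ATP. Complex II is encoded by nuclear genes alone, whereas complexes III, IV and V each also contain subunits encoded by mitochondrial DNA. In mammalian cells mTOR complex 1 is known to affect mitochondrial function through the translation of nuclear-encoded mitochondrial proteins.

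Values are the deposited normalized counts, that is, reads per gene divided by a size factor of each library. The libraries held 186274074 to 221626548 recovered reads with BEZ235 and 184790722 to 233767211 with DMSO. The Ewing markers CD99, NKX2-2, NR0B1, STEAP1, PAX7, LIPI and CCND1 were present in all libraries and differed in direction. CD99 was at 205289 to 210566 normalized counts with BEZ235 and 260959 to 267375 with DMSO, and NR0B1 and CCND1 were also lower. NKX2-2 was at 7487 to 7707 with BEZ235 and 3009 to 3236 with DMSO, and STEAP1 and LIPI were also higher. The PAX7 groups overlapped. Of 20 marker genes of other cell types (endothelial, epithelial, fibroblast and blood) 10 passed the filter, and all 20 summed to 12702 to 13760 with BEZ235 and 13312 to 14454 with DMSO. CD3E, HBB and KRT19 were at 0 in every library and PTPRC, PECAM1, VWF, CDH5, KDR and TEK reached at most 16.5. The highest were PDGFRB, at 5621 to 6242 with BEZ235 and 2118 to 2216 with DMSO, and COL1A1, at 4874 to 5306 with BEZ235 and 7955 to 8924 with DMSO. The share of the normalized counts on mitochondrial DNA was 0.507 to 0.706% with BEZ235 and 2.82 to 3.55% with DMSO. The 76 rows together took 1.35 to 1.40% with BEZ235 and 1.53 to 1.64% with DMSO. The part of these shifts in the results was not tested.

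Of the 76 rows, 73 passed the filter of at least 10 normalized counts in at least 3 libraries. COX4I2, COX6A2 and COX7B2 did not. With BEZ235, 18 of the 73 were higher and 34 were lower at a limma adjusted p under 0.05, and 21 were not called. The threshold was also passed by 66.3% of all 23923 rows tested, with 33.1% higher and 33.2% lower. The called share of the members, 71.2%, is therefore close to that of all rows. Among rows as abundant as most members, with a mean of at least 1000, 76.6% of the 64 members and 80.1% of all rows were called. More members were lower than higher, but most changes were modest. Only 4 members, COX6B2, COX17 and CYCS among the lower and COX15 among the higher, changed by at least 2-fold, or 5.5%, whereas 26.3% of all rows did. The median absolute log2 fold change was 0.30 over the members and 0.60 over all rows tested, and the median with its sign was -0.12 over the members and -0.001 over all rows tested. At a mean of at least 1000, 4.7% of the members and 17% of all rows reached 2-fold, and the median absolute log2 fold change was 0.31 over the members and 0.46 over all rows. In bulk RNA, a smaller number of transcripts per cell and fewer cells that make them cannot be told apart. The groups did not overlap for 57 of the 73 members, or 78.1%, and for 70.9% of all rows tested. At a mean of at least 1000 these shares were close, 84.4% of the members and 82.8% of all rows. The counts by complex below are to be read beside the shares of all rows.

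**Figure D1:**
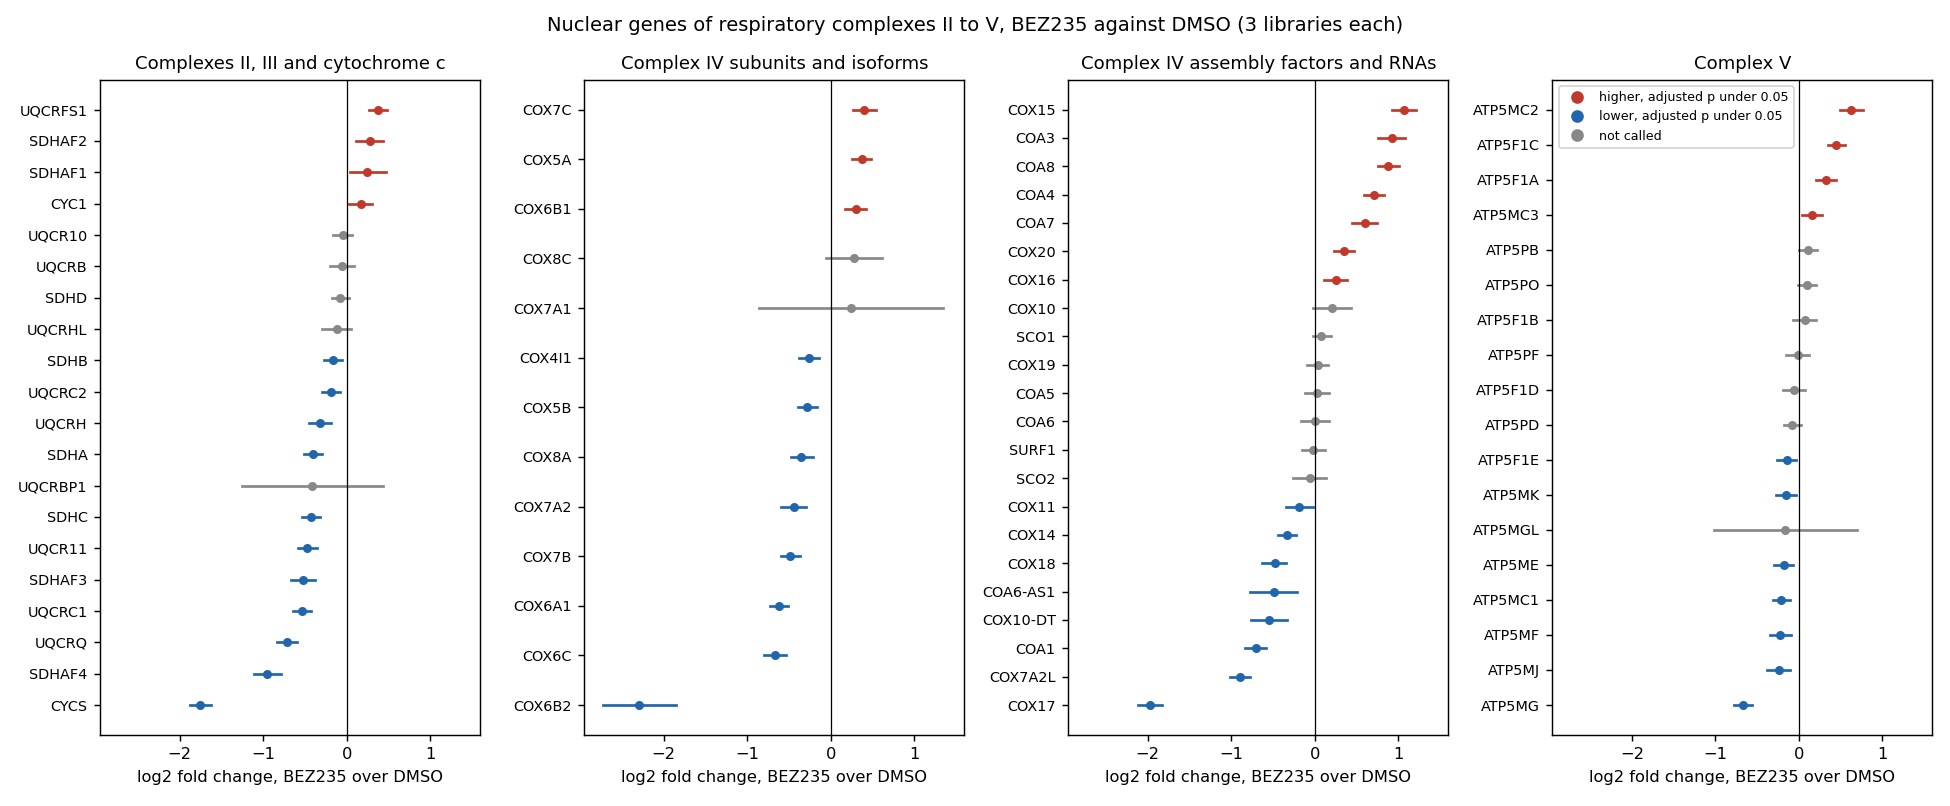
Log2 fold change of BEZ235 over DMSO for all 73 tested members (x axis; points are fitted values, bars are 95% intervals from the limma fit, red is higher, blue is lower and grey is not called). Most values lie within 1 unit of 0, and COX6B2, COX17 and CYCS stand below -1.

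CYCS encodes cytochrome c, the small soluble haem protein that carries electrons between complexes III and IV and also takes part in apoptosis when it leaves the mitochondrion. Its row (hg38 chr7:25118656-25125300) had 56758, 51433 and 55725 normalized counts in the BEZ235 libraries, against 183882, 188685 and 178202 in the DMSO libraries. The BEZ235 libraries all lay far below the lowest DMSO library, with a ratio of means of 0.298. The log2 fold change was -1.75 (SE 0.0583, adjusted p = 1.51e-09). By name there are 42 pseudogenes of CYCS, more than for any other member, so reads may have been split between the gene and its copies. HCCS, the lyase that attaches haem to cytochromes c and c1, had 1860.0, 1951 and 1743 in the BEZ235 libraries, against 2533, 3019 and 2772 in the DMSO libraries, and its log2 fold change was -0.58 (SE 0.0792, adjusted p = 6.26e-05). Both the carrier and the enzyme were lower in every BEZ235 library than in any DMSO library. The groups also did not overlap for 82.8% of all rows with a mean of at least 1000. CYC1, the gene of cytochrome c1, was higher, at 0.17.

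**Figure D2:**
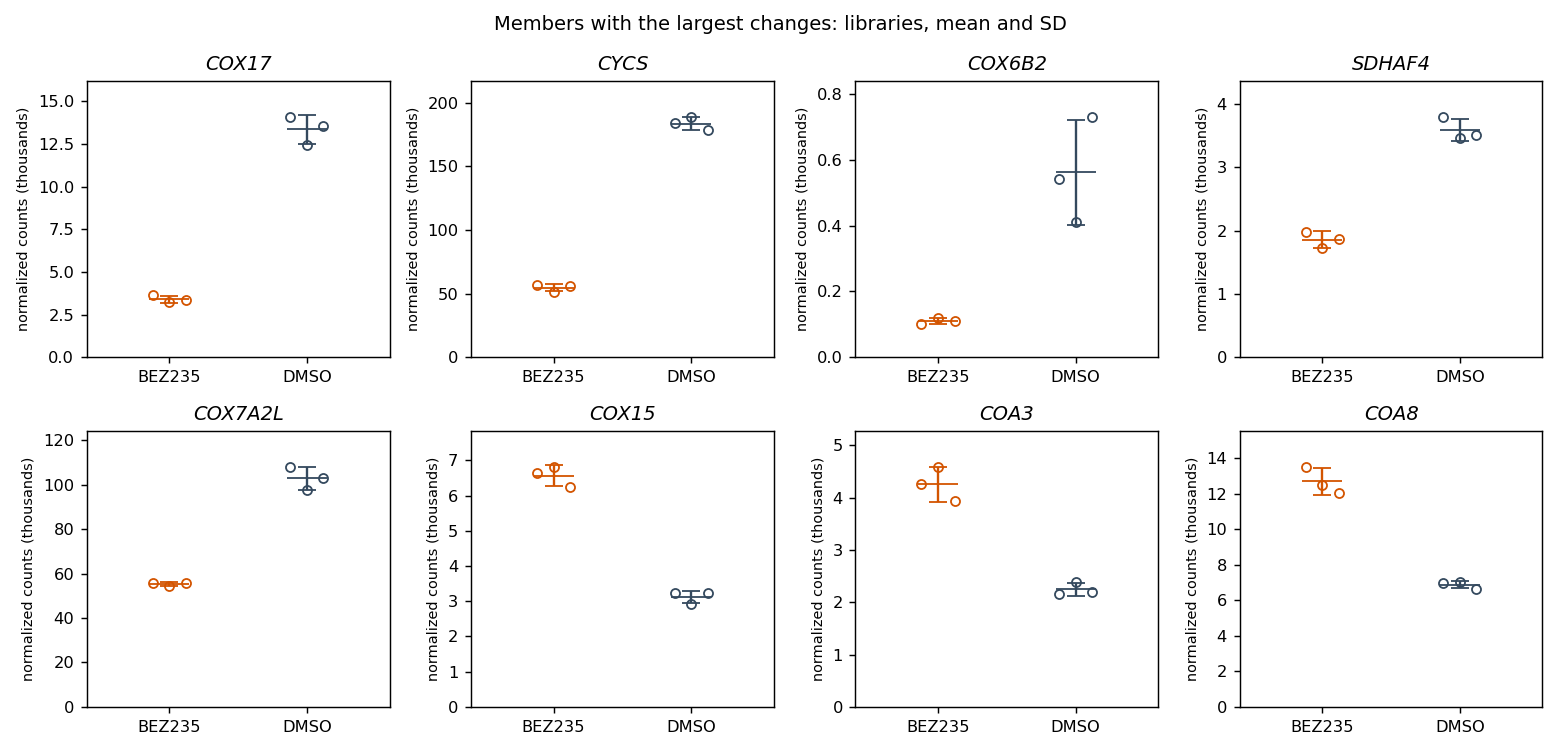
Normalized counts, divided by 1000 (y axis, from 0), for the 8 members with the largest absolute log2 fold changes, with BEZ235 left of DMSO; circles are libraries, the long dash is the mean and the bars are the SD of 3 libraries. COX17, CYCS, COX6B2, SDHAF4 and COX7A2L were lower and COX15, COA3 and COA8 higher in BEZ235 libraries, with no overlap between the groups.

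All 4 subunits of complex II were lower in each BEZ235 library than in any DMSO library, and 3 of the 4 were called. For all rows with a mean of at least 1000, 82.8% had groups that did not overlap and 80.1% were called. SDHA, the flavoprotein that oxidizes succinate, had 12693, 13108 and 12312 normalized counts in the BEZ235 libraries, against 16772, 16351 and 17265 in the DMSO libraries, a log2 fold change of -0.40 (SE 0.0498, adjusted p = 2.95e-05). SDHB, which holds the iron-sulfur clusters, had 14912, 14968 and 14032 in the BEZ235 libraries, against 16046, 16552 and 16351 in the DMSO libraries. Its change was smaller, at -0.16 (SE 0.0493, adjusted p = 0.0156), and with the same test the adjusted p was 0.0583 without DMSO replicate 3. SDHC, 1 of the 2 membrane anchors, had 28023, 27108 and 27746 in the BEZ235 libraries, against 37236, 36122 and 38136 in the DMSO libraries, with a log2 fold change of -0.43 (SE 0.048, adjusted p = 1.38e-05). The other anchor, SDHD, did not pass the test, with a log2 fold change of -0.08 (95% interval -0.18 to 0.03, adjusted p = 0.177). SDHD was at 0.01 with quantile normalization. Under total-count scaling SDHD was called as lower, so complex II then had 6 genes lower and 1 higher.

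The assembly factors of complex II moved in both directions, 2 up and 2 down. SDHAF4, which binds the flavin-loaded SDHA before SDHB joins it, had 1982, 1719 and 1867 normalized counts in the BEZ235 libraries, against 3796, 3464 and 3519 in the DMSO libraries. That is a log2 fold change of -0.95 (SE 0.0719, adjusted p = 5.75e-07), the largest in the complex. SDHAF3, which helps to equip SDHB with its clusters, had 4291, 3774 and 3996 in the BEZ235 libraries, against 5978, 5814 and 5484 in the DMSO libraries, a log2 fold change of -0.52 (SE 0.0641, adjusted p = 2.89e-05). SDHAF2, needed to attach the flavin to SDHA, was higher, with 6474, 6183 and 5627 in the BEZ235 libraries, against 5504, 4768 and 4814 in the DMSO libraries. Its log2 fold change was 0.28 (SE 0.0738, adjusted p = 0.00634). SDHAF1, which works on SDHB with SDHAF3, had 2109, 2229 and 2072 in the BEZ235 libraries, against 1984, 1527 and 1899 in the DMSO libraries. The groups of SDHAF1 do not overlap, by a narrow margin, and its log2 fold change of 0.25 (SE 0.096, adjusted p = 0.0372) was not called without BEZ235 replicate 1, 2 or 3 (limma adjusted p = 0.0713, 0.121 and 0.0651), nor without DMSO replicate 2 (adjusted p = 0.0946). For the 8 genes of complex II the median log2 fold change was -0.28.

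The 9 subunits of complex III had 5 members lower, 2 higher and 2 not called, with a median of -0.19. Under total-count scaling 7 were lower and 1 higher. The falls were led by UQCRQ, a small subunit next to cytochrome b, with 23384, 21974 and 21689.9 normalized counts in the BEZ235 libraries, against 37101, 37535 and 35110.0 in the DMSO libraries. The log2 fold change of UQCRQ was -0.71 (SE 0.0527, adjusted p = 5.06e-07). UQCRC1, 1 of the core proteins that face the matrix, had 24758, 25737 and 24545 in the BEZ235 libraries, against 35301, 36943 and 36387 in the DMSO libraries, a log2 fold change of -0.53 (SE 0.0483, adjusted p = 2.46e-06). UQCR11 had 26809, 27315 and 26027 in the BEZ235 libraries, against 37482, 37763 and 35419 in the DMSO libraries, a log2 fold change of -0.47 (SE 0.0501, adjusted p = 9.93e-06). The other core protein UQCRC2 and the hinge protein UQCRH, which sits beside cytochrome c1, fell by less, with log2 fold changes of -0.19 and -0.32.

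The 2 subunits of complex III that were higher are the ones that carry its nuclear-encoded redox centres. UQCRFS1, the Rieske iron-sulfur protein, had 24556, 25530.4 and 23801 normalized counts in the BEZ235 libraries, against 19455, 18665 and 18691 in the DMSO libraries. The rise was 0.38 (SE 0.0497, adjusted p = 4.69e-05) on the log2 scale. CYC1, cytochrome c1, had 23629.8, 24925 and 22845 in the BEZ235 libraries, against 19489, 22791 and 21244 in the DMSO libraries. The CYC1 groups came close to each other, and its log2 fold change of 0.17 (SE 0.0642, adjusted p = 0.036) lost its call without BEZ235 replicate 1 or 2 and without DMSO replicate 1 or 3 (adjusted p = 0.0778 to 0.137). UQCRB and UQCR10 did not pass the test, at -0.05 (95% interval -0.20 to 0.09, adjusted p = 0.485) and -0.04 (95% interval -0.16 to 0.07, adjusted p = 0.498). UQCRHL, an intronless copy of UQCRH, had 22838, 19479 and 17768 in the BEZ235 libraries, against 22182, 21512 and 21329 in the DMSO libraries, with overlapping groups and a log2 fold change of -0.12. UQCRH and UQCRHL are near-identical in sequence, so how their reads were divided is uncertain. UQCRBP1, a pseudogene of UQCRB inside the row of NBDY, had overlapping groups and 89.7 to 240.9 normalized counts with BEZ235 and 108.5 to 237.7 with DMSO.

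All 10 ubiquitous nuclear subunits of complex IV were called, 7 lower and 3 higher, with no overlap for any of them. Their median log2 fold change was -0.31. Among all rows with a mean of at least 1000, 80.1% were called and 82.8% had groups that did not overlap. The subunits COX6C, COX6A1, COX7B, COX7A2, COX8A, COX5B and COX4I1 were lower. COX6C had 35918, 34835 and 34844 normalized counts in the BEZ235 libraries, against 60289, 52223 and 55554 in the DMSO libraries, a log2 fold change of -0.67 (SE 0.0596, adjusted p = 2.18e-06). COX6A1, which lies where 2 copies of the enzyme meet, had 50554, 51637 and 48912 in the BEZ235 libraries, against 77765, 77201 and 77279 in the DMSO libraries, a log2 fold change of -0.62 (SE 0.0492, adjusted p = 8.57e-07). COX7A2 had 70085, 63401 and 67153 in the BEZ235 libraries, against 98704, 84016 and 90291 in the DMSO libraries, a log2 fold change of -0.44 (SE 0.0685, adjusted p = 0.000169). COX7B, COX8A and the zinc-binding COX5B had log2 fold changes of -0.49, -0.35 and -0.28.

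COX4I1 and COX5A are the first nuclear subunits to join the mitochondrially encoded COX1 protein, and they moved in opposite directions. COX4I1 had 126685, 129833 and 122378 normalized counts in the BEZ235 libraries, against 149353, 149296 and 155258 in the DMSO libraries, a log2 fold change of -0.26 (SE 0.0553, adjusted p = 0.00158). COX5A was higher, with 79420.5, 79958 and 75585 in the BEZ235 libraries, against 62252, 60020.5 and 59767 in the DMSO libraries, a log2 fold change of 0.37 (SE 0.0514, adjusted p = 7.61e-05). COX7C had 156364, 150798 and 140563 in the BEZ235 libraries, against 115500.4, 109203 and 113732 in the DMSO libraries. The log2 fold change of COX7C was 0.40 (SE 0.0603, adjusted p = 0.00013). COX6B1, which faces the intermembrane space beside the cytochrome c docking site, had 69932, 71611 and 65028 in the BEZ235 libraries, against 57018, 53238 and 58059 in the DMSO libraries, a log2 fold change of 0.30 (SE 0.0585, adjusted p = 0.00101). Every member of the higher trio was above all DMSO libraries. By name, COX6C has 17 pseudogenes and COX6A1, COX5B and COX6B1 have 7 each, with which reads may be shared.

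**Figure D3:**
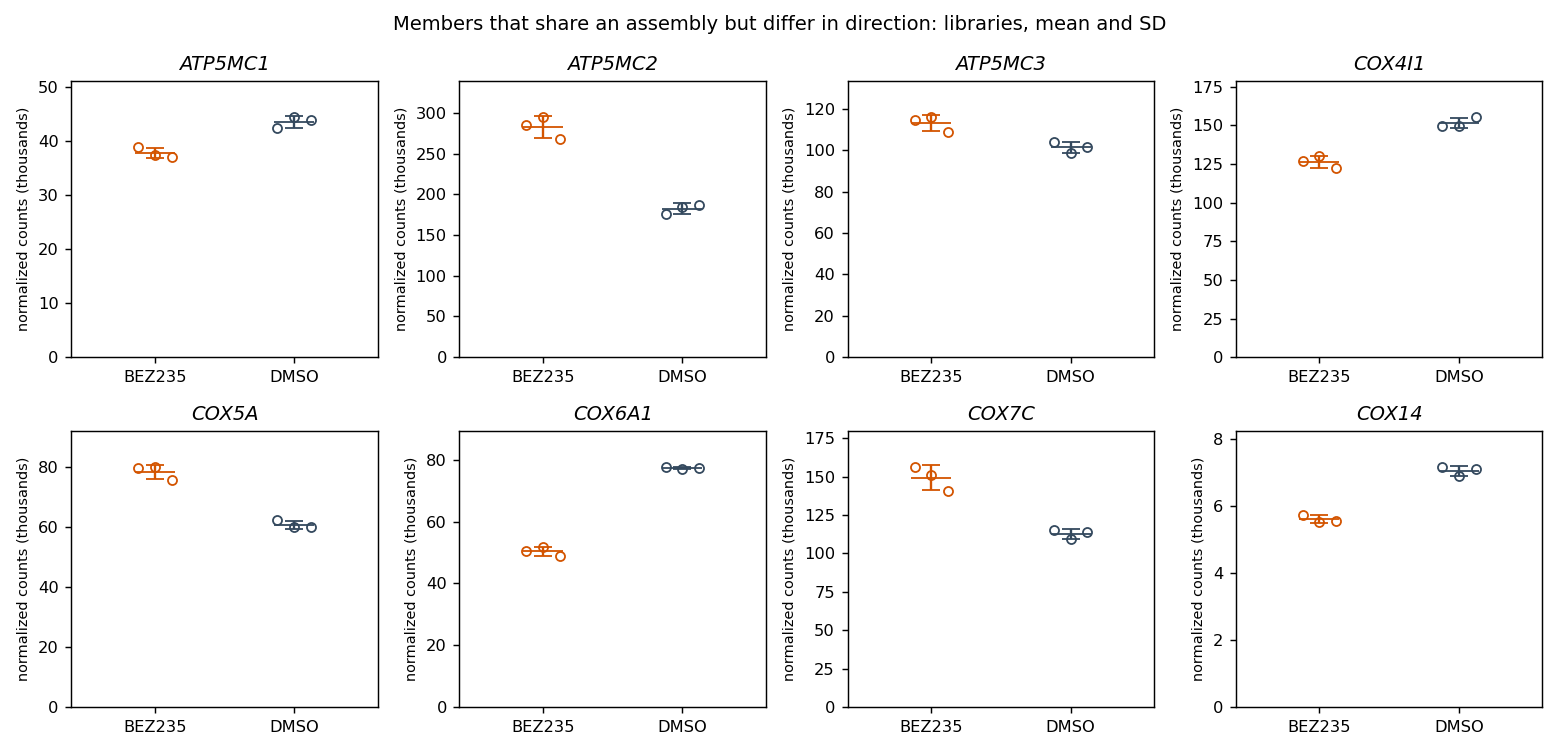
Normalized counts, divided by 1000 (y axis, from 0), for members of the same assembly that differ in direction, with BEZ235 left of DMSO; circles are libraries, the long dash is the mean and the bars are the SD of 3 libraries. ATP5MC2, ATP5MC3, COX5A and COX7C were higher in BEZ235 libraries, and ATP5MC1, COX4I1, COX6A1 and COX14 were lower.

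Complex IV also has isoforms that replace ubiquitous subunits in particular tissues, and these were rare in the cells. COX4I2, the isoform known from lung, was at 0 in all 6 libraries, where a count of 0 (3 reads) allows up to 2.72 to 3.47 normalized counts with BEZ235 and 2.50 to 3.24 with DMSO. COX6A2 of heart and muscle was seen in 1 BEZ235 library at 5.92, COX7B2 of testis in 1 BEZ235 library at 3.62, and both were at 0 in the other libraries. COX7A1 of heart and muscle had 22, 18.8 and 34.4 in the BEZ235 libraries, against 16.2, 36.1 and 14.2 in the DMSO libraries, with overlapping groups. The log2 ratio of COX7A1 to COX7A2 averaged -11.37 ± 0.419 in BEZ235 libraries and -12.06 ± 0.791 in DMSO libraries (SD, n = 3 each; exact permutation test, two-sided p = 0.3, adjusted p = 0.3). The exception was COX6B2, the testis counterpart of COX6B1, with 102, 119.5 and 111 normalized counts in the BEZ235 libraries, against 542, 412 and 729 in the DMSO libraries. Its log2 fold change of -2.29 (SE 0.199, adjusted p = 1.77e-06) was the largest of all 73 members, at a low level, while COX6B1 was higher. COX8C shares its row with the much longer gene UNC79, so its value, 327, 313 and 388 in the BEZ235 libraries, against 239, 323 and 287 in the DMSO libraries, cannot be ascribed to COX8C.

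Among the 20 assembly factors of complex IV 7 were higher, 6 lower and 7 not called (9 higher and 5 lower with quantile normalization), their median log2 fold change was 0.03, and they ranged from -1.97 to 1.07. For copper delivery 2 of 6 genes were called, both lower. That is 33.3%, below the 66.3% of all rows tested. COX17 (hg38 chr3:119663975-119677406), the chaperone that brings copper to the intermembrane space partners SCO1 and COX11, had 3645, 3240.1 and 3326 normalized counts in the BEZ235 libraries, against 14085, 12433 and 13549 in the DMSO libraries. The BEZ235 libraries all lay far below the DMSO libraries, with a ratio of means of 0.255, and the log2 fold change was -1.97 (SE 0.066, adjusted p = 1.57e-09). SCO1, which passes copper to the COX2 protein, had 10670.1, 10517 and 10290.0 in the BEZ235 libraries, against 9970.3, 9989 and 9800.5 in the DMSO libraries. That is a log2 fold change of 0.08 (95% interval -0.02 to 0.19, adjusted p = 0.154), which was not called although the groups do not overlap. SCO2, its paralog, shares a row with TYMP, and this row had 644, 647 and 694 in the BEZ235 libraries, against 648, 711 and 711 in the DMSO libraries, a log2 fold change of -0.06 (95% interval -0.26 to 0.14, adjusted p = 0.585). The log2 ratio of this shared row to SCO1 averaged -3.99 ± 0.0858 with BEZ235 and -3.85 ± 0.0844 with DMSO (SD, n = 3 each; exact permutation test, two-sided p = 0.2, adjusted p = 0.267). The shared row also overlaps that of NCAPH2, at -0.06, so neither value can be ascribed to SCO2. COX11, which inserts copper into COX1, had a log2 fold change of -0.19 (SE 0.0731, adjusted p = 0.0434), and this call was lost without BEZ235 replicate 2 or 3 or DMSO replicate 2 (adjusted p = 0.122 to 0.138). Its row overlaps that of TOM1L1, with a log2 fold change of -0.41. COX19 and COA6 had log2 fold changes of 0.04 (95% interval -0.09 to 0.16, adjusted p = 0.561) and 0.00 (95% interval -0.17 to 0.17, adjusted p = 0.998).

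Haem a is made from haem b by COX10 and then COX15, and the second enzyme was higher. COX15 (hg38 chr10:99694293-99732666) had 6634, 6817 and 6234 normalized counts in the BEZ235 libraries, against 3228, 2926 and 3224 in the DMSO libraries. Its log2 fold change of 1.07 (SE 0.0628, adjusted p = 8.47e-08) was the largest rise of all members. The row overlaps those of ENTPD7 and CUTC, which had log2 fold changes of 0.35 and -1.59. COX10 had 970.5, 1161 and 922 in the BEZ235 libraries, against 899.8, 924 and 809.5 in the DMSO libraries, with a log2 fold change of 0.21 (95% interval -0.02 to 0.44, adjusted p = 0.1). COX10-DT, a divergent RNA from the start of COX10, was lower, at -0.55.

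COA3 and COX14 bind the newly made COX1 protein together, and they changed in opposite directions. COA3 had 4250.4, 4588 and 3924 normalized counts in the BEZ235 libraries, against 2149.6, 2390.3 and 2198 in the DMSO libraries, a log2 fold change of 0.92 (SE 0.0733, adjusted p = 8.99e-07). COX14 was lower, with 5742, 5536 and 5567 in the BEZ235 libraries, against 7176, 6887 and 7094 in the DMSO libraries, a log2 fold change of -0.33 (SE 0.0505, adjusted p = 0.000159). COA1, which acts at the same early stage, had 6303, 5904 and 6148 in the BEZ235 libraries, against 9549, 10526 and 9762 in the DMSO libraries, a log2 fold change of -0.70 (SE 0.0565, adjusted p = 9.82e-07). The row of COA3 overlaps that of WNK4, at -1.01, and the row of COA1 overlaps those of UBE2D4, at 0.24, STK17A, at -0.43, and 3 rows with no symbol, at -0.72, 2.30 and 2.90. SURF1, which acts in early assembly of the COX1 module, had 2438, 2627 and 2446 in the BEZ235 libraries, against 2486, 2549 and 2567 in the DMSO libraries and a log2 fold change of -0.02 (95% interval -0.15 to 0.12, adjusted p = 0.81). SURF1 shares part of its row with SURF2 and RPL7A, both higher, at 1.96 and 0.91. Among the chaperones of the COX2 protein, COX20 and COX16 were higher, at 0.35 and 0.25, and the membrane insertase COX18 was lower, at -0.48. The call of COX16 was lost with total-count scaling (0.16, adjusted p = 0.0852).

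COA8, whose loss causes complex IV deficiency in humans, had 13533, 12522 and 12064 normalized counts in the BEZ235 libraries, against 6991, 7017 and 6642 in the DMSO libraries, a log2 fold change of 0.88 (SE 0.0574, adjusted p = 1.83e-07). The twin-cysteine protein COA4 and COA7 were also higher, at 0.71 (SE 0.0552, adjusted p = 7.47e-07) and 0.60 (SE 0.068, adjusted p = 1.48e-05). COA5 did not pass the test, at 0.03 (95% interval -0.12 to 0.17, adjusted p = 0.725). COX7A2L, a relative of COX7A2 that links complexes III and IV into a supercomplex, had 55561, 54357 and 55898 in the BEZ235 libraries, against 108099, 97506 and 102978 in the DMSO libraries. The log2 fold change of COX7A2L was -0.89 (SE 0.0553, adjusted p = 1.26e-07). The log2 ratio of COX7A2L to COX7A2 was -0.34, -0.22 and -0.26 in BEZ235 libraries and 0.13, 0.21 and 0.19 in DMSO libraries. This ratio was lower in every BEZ235 library than in any DMSO library, a difference of -0.45 (exact permutation test, two-sided p = 0.1, the smallest that 3 libraries against 3 can give, and 0.2 adjusted over 4 pairs). Counts were not divided by transcript length, so the sign of the ratio does not rank the 2 transcripts. COA6-AS1, antisense to COA6, was lower at -0.49 while COA6 was at 0.00, and reads of the stretch they share cannot be told apart.

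Complex V had 7 of 17 subunits lower, 4 higher and 6 not called, and their log2 fold changes had a median of -0.06 and a median absolute value of 0.16. The balance depended on the scaling, with 2 lower and 6 higher under quantile normalization. In the F1 head, where ATP is made, 2 of 5 subunits were higher and 1 lower. ATP5F1C, the gamma subunit of the rotating shaft, had 37782, 37314 and 36768 normalized counts in the BEZ235 libraries, against 27167, 27889 and 26855 in the DMSO libraries, a log2 fold change of 0.45 (SE 0.0467, adjusted p = 7.41e-06). ATP5F1A, the alpha subunit, had 143739, 147410.4 and 138554 in the BEZ235 libraries, against 111376, 116208 and 114166 in the DMSO libraries, a log2 fold change of 0.33 (SE 0.0548, adjusted p = 0.000284). ATP5F1B, the catalytic beta subunit that forms a ring with alpha, had 208705, 213211 and 196288 in the BEZ235 libraries, against 187081, 204837 and 195523 in the DMSO libraries. These groups overlap, and the log2 fold change was 0.07 (95% interval -0.07 to 0.21, adjusted p = 0.327). ATP5F1D was not called, at -0.06 (95% interval -0.19 to 0.07, adjusted p = 0.383), and ATP5F1E, whose row lies inside that of NELFCD, was lower at -0.14 (SE 0.0525, adjusted p = 0.0336), a call that was lost without any 1 of the libraries other than DMSO replicate 2 (adjusted p = 0.0542 to 0.119).

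The peripheral stalk holds the head still against the rotor, and none of its 4 genes was called by limma on the deposited scale. ATP5PB, ATP5PO, ATP5PD and ATP5PF had log2 fold changes of 0.11, 0.10, -0.08 and -0.01, with an unadjusted p under 0.05 for 1 of them. With edgeR ATP5PB was called, and with DESeq2 both ATP5PB and ATP5PO were. Limma called ATP5PB with TMM scaling and without DMSO replicate 2, ATP5PB and ATP5PO with quantile normalization, both as higher, and ATP5PD as lower with total-count scaling. Among the 4 the widest 95% interval was that of ATP5PF, from -0.15 to 0.12.

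The c subunit of the rotor ring is encoded by 3 genes that give the same mature protein with different import sequences, and their transcripts differed in direction on the deposited scale. ATP5MC2 (hg38 chr12:53665166-53677408) had 284569, 294731 and 267719.7 normalized counts in the BEZ235 libraries, against 175274, 184629 and 187282 in the DMSO libraries, a log2 fold change of 0.63 (SE 0.0641, adjusted p = 6.32e-06), the largest rise in complex V. ATP5MC3 had 114612, 116132 and 109113 in the BEZ235 libraries, against 104249, 98684 and 101546 in the DMSO libraries, a smaller log2 fold change of 0.16 (SE 0.0546, adjusted p = 0.0245) that lost its call without BEZ235 replicate 1 or 2 and without DMSO replicate 3 (adjusted p = 0.0835 to 0.089), or with total-count scaling (0.06, adjusted p = 0.263). ATP5MC1 was lower, with 38913, 37454 and 37118 in the BEZ235 libraries, against 42388, 44470.2 and 43974 in the DMSO libraries, a log2 fold change of -0.21 (SE 0.0491, adjusted p = 0.00343). With quantile normalization ATP5MC1 was at -0.10 and was not called (adjusted p = 0.0518). The log2 ratio of ATP5MC1 to ATP5MC3 averaged -1.58 ± 0.0436 in BEZ235 libraries and -1.22 ± 0.0748 in DMSO libraries (SD, n = 3 each), with no overlap (exact permutation test, two-sided p = 0.1, adjusted p = 0.2). The sum over the 3 genes was 413951 to 448317 normalized counts with BEZ235 and 321911 to 332802 with DMSO. ATP5MC2 has 5 and ATP5MC1 has 8 pseudogenes by name, and the ATP5MC1 row lies inside that of LOC105371814, whose log2 fold change was 0.36.

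The 5 small membrane subunits e, f, g, 6.8PL and DAPIT, which join ATP synthase molecules into dimers or stabilize them, were all lower, although ATP5ME, ATP5MJ and ATP5MK were not called with quantile normalization. ATP5MG, subunit g, had 47800.5, 45787 and 45319.6 normalized counts in the BEZ235 libraries, against 74273, 72338 and 74429 in the DMSO libraries, a log2 fold change of -0.67 (SE 0.0497, adjusted p = 5.06e-07). The ATP5MG row lies inside that of LOC100131626, at -0.07. ATP5MJ had 49357, 46846 and 46836 in the BEZ235 libraries, against 61429, 53623 and 54508 in the DMSO libraries, a log2 fold change of -0.24 (SE 0.0619, adjusted p = 0.00501). ATP5MF had 51070.0, 47593 and 46752 in the BEZ235 libraries, against 55341, 59338 and 54539.9 in the DMSO libraries, a log2 fold change of -0.22 (SE 0.0571, adjusted p = 0.00576). ATP5ME and ATP5MK had -0.18 and -0.15, and the call of ATP5MK (adjusted p = 0.0333) was lost without BEZ235 replicate 1 or 2 or DMSO replicate 1 (adjusted p = 0.0828 to 0.133 then). ATP5MGL, a copy of ATP5MG inside the row of CYB5R3, stayed at 32.6 to 34.7 normalized counts with BEZ235 and 22.5 to 49.6 with DMSO.

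A list of 37 other symbols, drawn up for complexes II to V, matched 32 rows, of which 14 were higher and 13 lower. That is 84.4% called, against 66.3% of all rows tested and 80.1% of those with a mean of at least 1000. The list holds COMMD7, at 0.56, and DMAC2, at -0.12, whose place in these complexes was not checked. PET117, at 1.34, and FMC1, at 0.24, share rows with KAT14 and LUC7L2, so these values cannot be ascribed to them. The median absolute log2 fold change of the list was 0.46 and its median 0.01. LRPPRC and SLIRP, partners that bind and stabilize mitochondrial messenger RNAs, were both higher. LRPPRC had 30849.8, 31388 and 28857 normalized counts in the BEZ235 libraries, against 14003, 12112 and 13090.4 in the DMSO libraries, a log2 fold change of 1.22 (SE 0.0625, adjusted p = 3.11e-08), and SLIRP had one of 0.88 (SE 0.0476, adjusted p = 4.44e-08). OXA1L, the insertase for mitochondrially made proteins, was higher at 0.78 (SE 0.0629, adjusted p = 9.57e-07). Among lower genes, CMC2, a copper-related twin-cysteine protein, had 949.7, 920.1 and 856 in the BEZ235 libraries, against 3537, 3553 and 3468 in the DMSO libraries, a log2 fold change of -1.95 (SE 0.0682, adjusted p = 1.97e-09). HIGD1A, TMEM70, which helps to build the rotor ring, and UQCC2, a complex III assembly factor, followed at -1.14, -1.02 and -0.98. ATP5IF1, which blocks ATP hydrolysis by complex V, was lower at -0.75 (SE 0.0539, adjusted p = 3.89e-07). NDUFA4, a subunit of complex IV despite its name, was lower at -0.38 (SE 0.064, adjusted p = 0.000306), in the direction of 7 of the 10 other subunits.

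Complex I, the entry point for electrons from NADH, had 24 of 37 subunits lower and 8 higher and a median log2 fold change of -0.22. Only assembly factors with NDUFAF symbols were counted, and of these 8, 4 were lower and 1 higher. The called shares were 86.5% of the subunits and 62.5% of these factors. Of all rows tested 66.3% were called, and of those with a mean of at least 1000, 80.1%. The medians were -0.28 for complex II, -0.19 for complex III subunits, -0.31 for complex IV subunits and -0.06 for complex V subunits. No test of the difference between complexes was made. Rows of mitochondrial DNA that hold genes of complexes III, IV and V were lower as well. The row with MT-CO1, MT-CO2, MT-CO3, MT-ATP6 and MT-ATP8 also covers the complex I genes MT-ND3, MT-ND4L and MT-ND4, whose reads cannot be told apart from theirs, and had 441080, 436514 and 570394 normalized counts in BEZ235 libraries and 2428327, 1983399 and 1915227 in DMSO libraries, a log2 fold change of -2.13 (SE 0.128, adjusted p = 1.02e-07). The row of MT-CYB, the mitochondrially encoded subunit of complex III, had 30561, 30246 and 39381 in BEZ235 libraries and 78867, 85207 and 70830.2 in DMSO libraries, a log2 fold change of -1.24 (SE 0.101, adjusted p = 1.12e-06). The groups overlap for neither row.

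**Figure D4:**
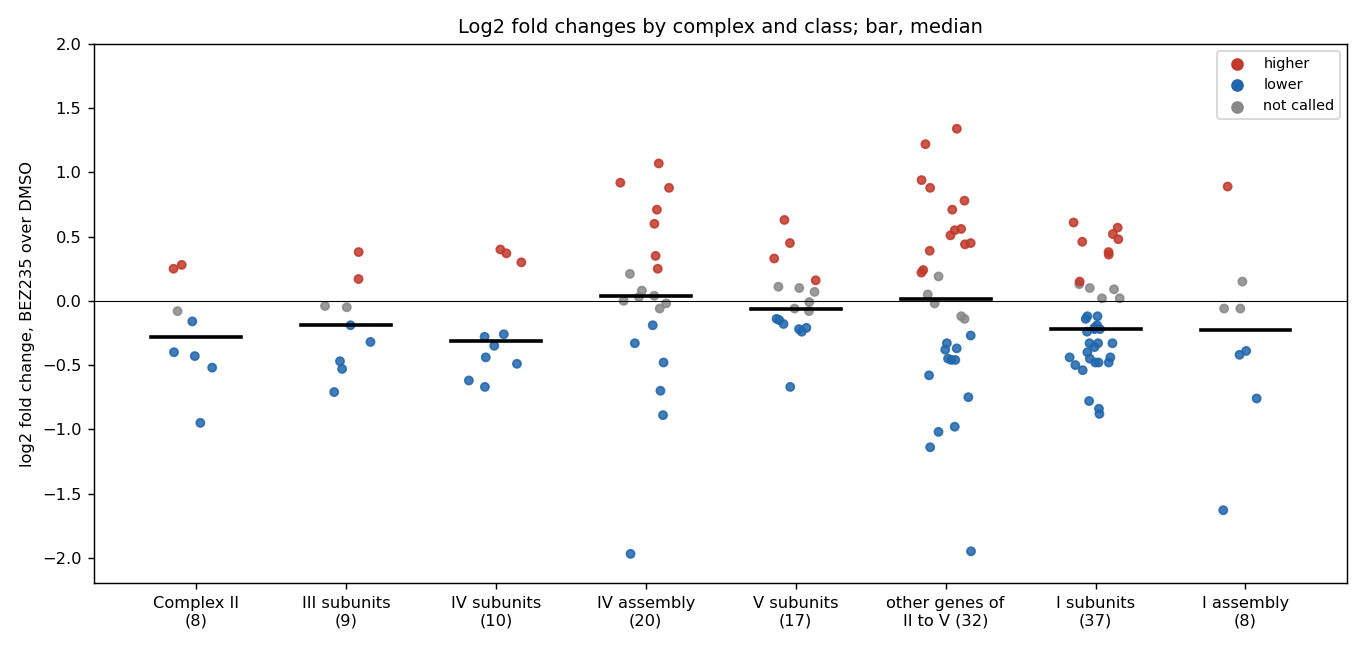
Log2 fold change of BEZ235 over DMSO for each tested gene (y axis) by complex and class (x axis, number of genes in brackets); red points are higher, blue lower and grey not called, and black bars are medians. The medians of complexes I, II, III and IV subunits are between -0.31 and -0.19, and that of complex V subunits is -0.06.

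Promoters of nuclear respiratory genes are known for sites of nuclear respiratory factor 1 (NRF1) and of ETS factors such as GABP, so the 250 bases before and 50 bases after each RefSeq start site (GRCh38.p14) were searched on both strands. The letters searched were CCGGAAGT for ETS factors and, for NRF1, the palindrome that stands in capitals in the COX17 and COX18 sequences printed here. Only exact matches were counted. Of the 73 members that are not pseudogenes or noncoding RNAs, 59 had a promoter in the table. The NRF1 palindrome was found in 4 of them, or 6.8%, and in 1.36% of 27305 promoters of that length. CCGGAAGT was found in 16 members, or 27.1%, and in 4.44% of all promoters. All promoters were taken whether or not their gene was expressed in these cells, and promoters of like base content were not compared. Of the 4 members with the NRF1 letters COX17 and COX18 were lower, ATP5F1C was higher and SDHD was not called. Of the 16 with the ETS letters 8 were lower, 3 higher and 5 not called. Members that hold the same letters thus differ in direction.

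The 150 bases before the start are printed for the 4 members with the NRF1 letters and for CYCS, COX15 and ATP5MC2, the electron carrier and the largest rises among the assembly factors and in complex V. Capitals mark the letters searched, and each sequence is credited to RefSeq (GRCh38.p14). They lie at COX17 chr3:119677407-119677556 (minus strand), COX18 chr4:73069717-73069866 (minus strand), SDHD chr11:112086723-112086872 (plus strand), ATP5F1C chr10:7788027-7788176 (plus strand), CYCS chr7:25125261-25125410 (minus strand), COX15 chr10:99732128-99732277 (minus strand) and ATP5MC2 chr12:53676084-53676233 (minus strand).
COX17: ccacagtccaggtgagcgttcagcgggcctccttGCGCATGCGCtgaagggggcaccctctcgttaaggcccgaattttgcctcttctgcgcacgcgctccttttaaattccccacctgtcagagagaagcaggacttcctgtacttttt
COX18: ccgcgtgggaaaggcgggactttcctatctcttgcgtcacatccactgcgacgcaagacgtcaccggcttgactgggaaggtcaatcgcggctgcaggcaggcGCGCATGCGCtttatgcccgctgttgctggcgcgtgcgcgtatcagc
SDHD: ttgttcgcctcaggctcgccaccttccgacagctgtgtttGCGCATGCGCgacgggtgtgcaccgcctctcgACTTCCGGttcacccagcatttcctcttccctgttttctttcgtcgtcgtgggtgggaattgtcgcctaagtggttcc
ATP5F1C: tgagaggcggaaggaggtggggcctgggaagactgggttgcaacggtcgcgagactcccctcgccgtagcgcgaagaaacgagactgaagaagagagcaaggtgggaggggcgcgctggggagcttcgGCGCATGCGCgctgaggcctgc
CYCS: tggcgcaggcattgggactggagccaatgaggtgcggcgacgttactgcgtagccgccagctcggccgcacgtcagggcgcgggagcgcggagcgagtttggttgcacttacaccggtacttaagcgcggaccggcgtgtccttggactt
COX15: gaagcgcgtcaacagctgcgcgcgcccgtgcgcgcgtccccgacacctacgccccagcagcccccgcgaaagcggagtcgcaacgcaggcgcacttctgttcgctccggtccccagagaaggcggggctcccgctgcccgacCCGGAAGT
ATP5MC2: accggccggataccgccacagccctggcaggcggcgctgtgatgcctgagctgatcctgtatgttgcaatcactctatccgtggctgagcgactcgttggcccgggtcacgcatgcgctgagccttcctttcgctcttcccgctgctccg
The NRF1 letters begin 116 bases before the start in COX17, 47 in COX18, 110 in SDHD and 22 in ATP5F1C. SDHD also holds the ETS letters on the other strand, 78 bases before the start. COX15 has the ETS letters 8 bases before the start, and COX17 has them 11 bases after it, outside the stretch shown. CYCS and ATP5MC2 hold no exact match to either in this window, and sites with other letters were not searched for.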

How the data were processed

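RNA sequencing of TC-71 cells gave 1 table with 3 BEZ235 and 3 DMSO columns. The authors deposited normalized counts, a signal of at least 0; per the file headers, rows are FASTDB genes with hg38 coordinates. FastQC, Picard, SAMtools, STAR 2.4.0 and DESeq are named per the submitters' processing notes, with no roles. Control columns were matched to DMSO samples by number. Each column held whole multiples of 1 step (0.835 to 1.16 normalized counts), and whole reads came back for 100% of values within 0.01. The labels do not say whether counting used strand, so overlapping rows may share reads; 29 of 73 tested members overlap another expressed row. Limits from a count of 0 are 3 reads and cover counting error only.

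Rows with at least 10 normalized counts in at least 3 libraries were tested with limma 3.58.1 (R 4.3.3) with a mean-variance trend on log2(normalized count + 1), group only, two-sided, Benjamini-Hochberg adjusted over all 23923 rows, threshold 0.05. Adjusted p-values and SE are from this fit unless edgeR 4.0.16 or DESeq2 1.42.0, run on recovered reads, is named. Fold changes on this scale understate those of low rows. Libraries of a group differed beyond sampling noise (mean chi-square per gene 16.75 to 146.8). The fit was tested on simulated data. Members, lists, modules and the split at a mean of 1000 were chosen with earlier results of these data known. Per-library values were due for the 3 largest called rises and falls of each class with a mean of at least 100, and for 19 genes set by name; other members are given by fold change, except COX10, COX14, COX8C and UQCRHL, which were chosen after their values were seen. Promoters came from RefSeq (GRCh38.p14).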

Additional observations from a re-analysis of the deposited data

How the results depend on the processing

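The alternatives were TMM, total-count and quantile scaling, pseudocounts of 0.5 and 10, no filter and a filter at 50, edgeR, DESeq2, a replicate block, limma with no mean-variance trend and leaving out each library. Of 52 called members, 41 kept call and direction in all of them and no called member reversed. With total-count scaling 1 gene of complex II and 1 of complex III were higher and the medians were -0.38 (II), -0.29 (III), -0.41 (IV subunits), -0.06 (IV assembly factors) and -0.16 (V); ATP5F1B and SCO1 were both at -0.02. With quantile normalization the medians were -0.11 (III), 0.08 (IV assembly factors) and 0.01 (V), 2 subunits of complex V were lower, 2 complex I assembly factors were higher, and ATP5F1B was at -0.06 and SURF1 at 0.02. Without the trend 1 gene of complex II and 1 of complex III were higher. Calls were lost for ATP5MC3, COX16, CYC1 and SDHAF1 with total-count scaling, for ATP5F1E, ATP5MC1, ATP5ME, ATP5MJ, ATP5MK and COX11 with quantile normalization, for ATP5F1E, ATP5MC3, ATP5MK, COX11, CYC1, SDHAF1 and SDHB without the trend, and for ATP5F1E and ATP5MK with no filter. Calls were gained for ATP5PD, SDHD, UQCR10, UQCRB and UQCRHL with total-count scaling, for ATP5PB, ATP5PO, COX10 and SCO1 with quantile normalization, and for ATP5PB with TMM and edgeR and ATP5PB and ATP5PO with DESeq2. The cause of these shifts was not tested. Without each library in turn, 15 to 19 members were higher and 31 to 34 lower; higher genes numbered 1 to 2 in complex II, 1 to 2 in complex III and 1 to 2 among complex I assembly factors. The medians were then -0.29 to -0.25 (II), -0.22 to -0.18 (III), -0.33 to -0.29 (IV subunits), 0.01 to 0.08 (IV assembly factors) and -0.09 to -0.03 (V). SURF1 ran from -0.05 to 0.00 and COX7A1 from -0.00 to 0.64. The replicate numbers did not pair the libraries (correlations of same-numbered deviations -0.038, 0.023 and 0.044); with the replicate block 17 members were higher and 34 lower, and ATP5MC3 lost its call by a narrow margin (adjusted p = 0.05 after rounding). Precision was lowest for rows with few reads, such as COX7A1 (SE 0.50), ATP5MGL (SE 0.390) and UQCRBP1 (SE 0.380).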
